A study of Pinus elliottii with 16 samples.

Results

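In the vascular cambium of tapped slash pine, 147 of 8949 deposited features had a higher mean log2 level with a resin stimulant paste. This held against wounding alone on both day 5 and day 15. A feature here is an annotated locus or transcript model. The members were chosen by their measured values, as log2(value + 1), where the value is the authors' normalized fragment count. Every member had a value of 10 or more in at least 4 of the 16 libraries, and all 4 paste libraries of day 5 lay above all 4 controls of day 5. The mean log2 difference of paste from control was at least 1 at day 5 and at least 0.7 at day 15. These differences are therefore a description of how the members were picked, and no test of them is given as support.

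The 4 groups, with 4 libraries each, were paste day 5, control day 5, paste day 15 and control day 15. All trees were 16-year-old Pinus elliottii that had been tapped with a conventional stimulant paste through the previous year, and all had bark stripped for the experiment. Paste trees then received a streak of paste holding sulfuric acid and Ethrel (2-chloroethylphosphonic acid) in a rice husk carrier, and control trees received none. Tissue came from just above the wound. No group received the acid or the Ethrel alone, and although the labels mention 4 trees picked at random, they do not say which library came from which tree. In these bulk samples, fewer cells of a type and less RNA per cell cannot be told apart.

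The cambium is the dividing layer between wood and bark. In conifers, wounding and ethylene can make it form extra resin ducts, whose lining cells produce terpene resin. Ethrel breaks down in plant tissue and releases ethylene, which is why tappers use it to prolong resin flow. Neither a gene name nor a description is paired with the identifiers in the files, so no role is given to any member, and the tissue label could not be set against marker genes. Only the first 2 members are named by identifier. The others are given by rank, in the order of the smaller of their day 5 and day 15 differences, since a high rank needs a large difference on both days.

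The libraries held 3323772 to 5203863 estimated fragments, with 6351 to 6901 features above 0. Replicate 1 of the paste libraries held almost the same values on day 15 as on day 5. Their Pearson correlation over the 5856 features tested was 0.986, against 0.673 to 0.945 in the other pairs of libraries. Over the 147 members these libraries differed by a median of 0.11 on the log2 scale, against 0.52 between paste day 15 replicates 2 and 4. Paste day 15 replicate 3 correlated at 0.824 to 0.943 with the paste day 5 libraries and at 0.727 to 0.828 with its own group. The main day 15 differences are therefore also given for replicates 2 and 4 alone.

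**Figure D1:**
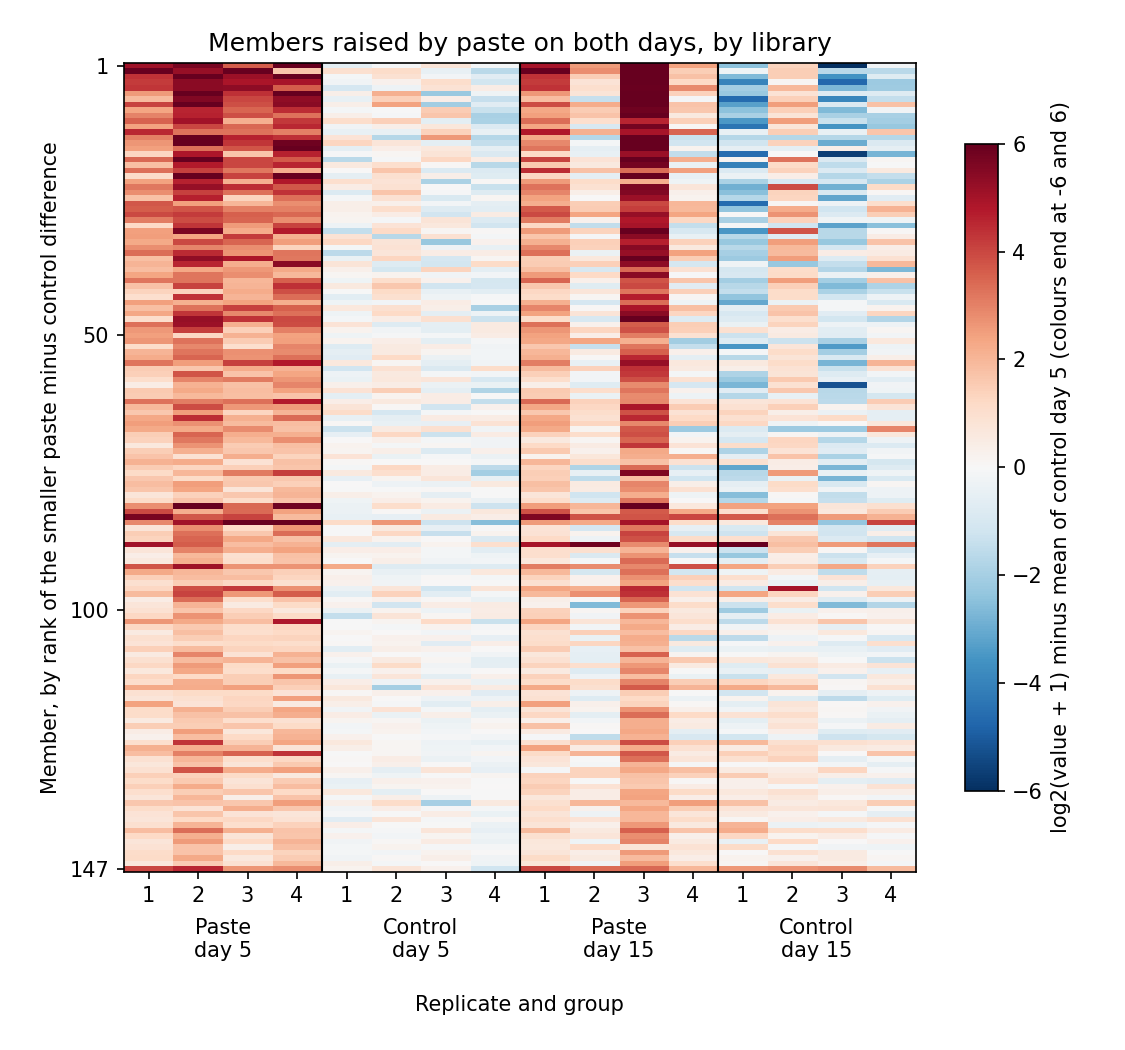
Each row is a member and each column a library; colour is log2(value + 1) minus the mean of the control day 5 libraries for that member. Rows run from rank 1 to 147. Paste day 15 replicate 3 has the highest median of any column, 3.41, and paste day 15 replicates 2 and 4 have medians of 0.42 and 0.58.

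PITA_000020711 ranked first. Its values were 2196, 3345, 799 and 5635 in paste day 5 replicates 1 to 4, against 42.8, 61.9, 109.7 and 58.3 in the control day 5 replicates. At day 15 it was at 1986, 384, 9003 and 343 with paste, against 10.9, 163, 0 and 58.0 in controls. Every paste library lay above every control of its day, and paste day 15 replicates 2 and 4 were the lowest of the 8 paste libraries. The log2 difference of paste from control was 5.20 at day 5 and 6.07 at day 15, and 4.30 at day 15 with replicates 2 and 4 alone. Control day 15 replicate 3 is at 0 and weighs on the day 15 mean of the log2 values; without it the difference was 4.67.

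PITA_000030936 ranked second at a far lower level. It was at 197, 113, 588 and 8.54 in the paste day 5 libraries, against 4.85, 5.54, 1.26 and 0 in the control day 5 libraries. At day 15 it was at 195, 20.0, 969 and 7.57 with paste, against 1.56, 7.44, 0 and 0 in controls. The groups did not overlap on either day, but the lowest paste library at day 15 stood next to the highest control. The log2 differences were 5.12 at day 5 and 5.15 at day 15, and 2.64 at day 15 with replicates 2 and 4 alone.

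The third member had the largest day 5 difference of all, 5.58. It was at 4648, 18852, 7948 and 20312 in the paste day 5 libraries, against 208, 432, 206 and 143 in the control day 5 libraries. At day 15 it was at 4535, 638, 36758 and 777 with paste, against 35.8, 638, 17.7 and 136 in controls. Paste day 15 replicate 2 and control day 15 replicate 2 were thus at nearly the same value. The day 15 difference was 5.10, and 3.00 with paste replicates 2 and 4 alone.

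The member with the highest level under paste ranked 65. It was at 26672, 116851, 23208 and 56262 in the paste day 5 libraries, against 3984, 3719, 7517 and 7417 in the control day 5 libraries. At day 15 it was at 26389, 10008, 124970.0 and 12335 with paste, against 10306, 9397, 12039 and 3725 in controls, so that the groups overlapped on that day. The day 15 difference was 1.64 with all 4 paste libraries and 0.45 with replicates 2 and 4. In paste day 15 replicate 3 and paste day 5 replicate 2 this single feature took 2.101% and 2.02% of the library's signal, against 0.0823% to 0.298% in the controls of both days.

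**Figure D2:**
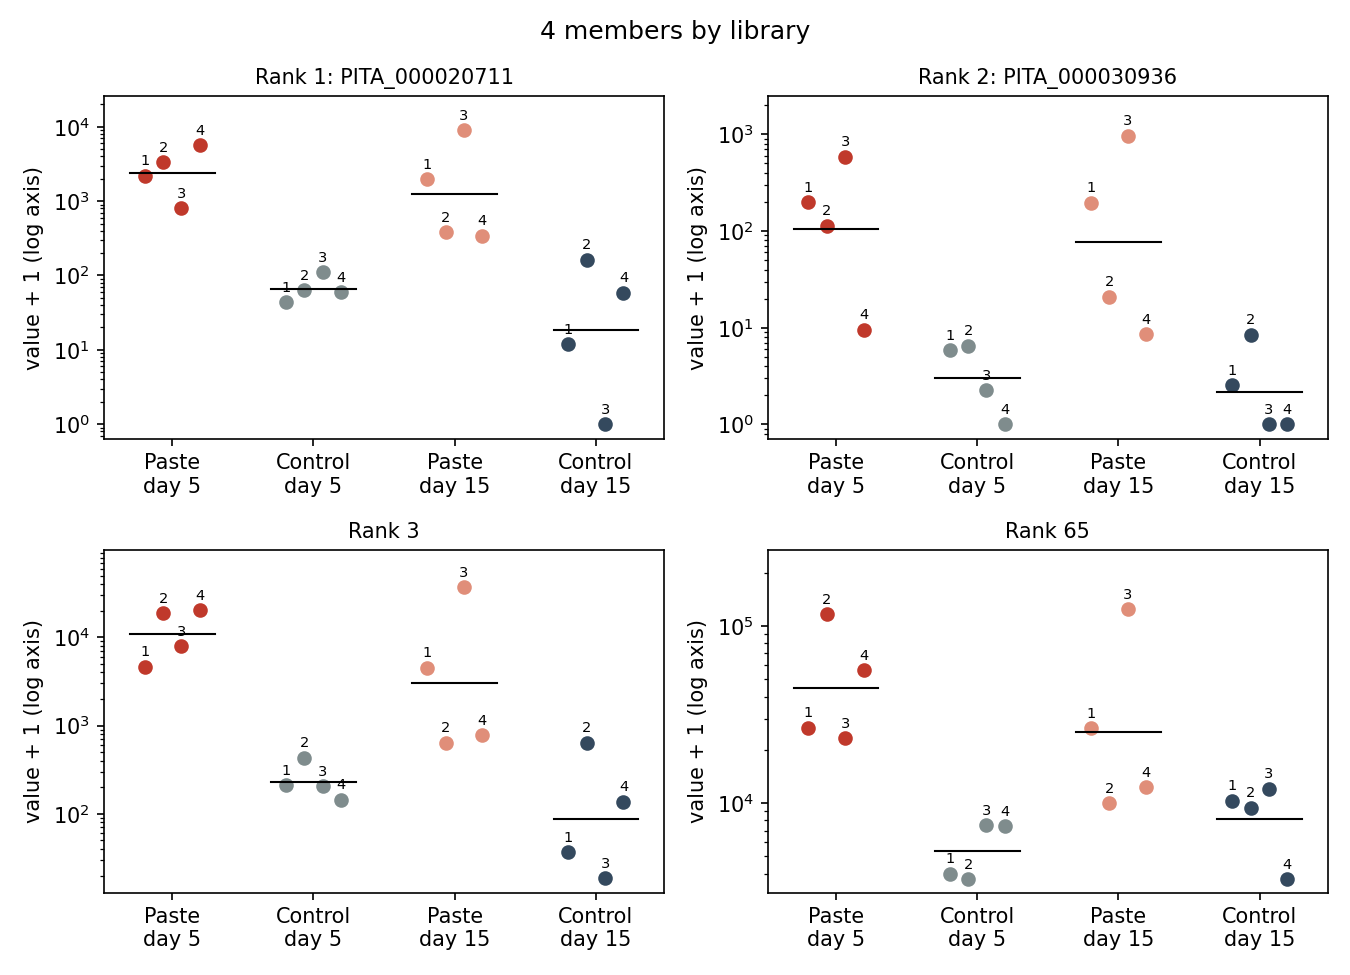
Points are the values plus 1 in single libraries on a log axis, numbered by replicate, with the mean of the log values as a line, for the members of rank 1, 2, 3 and 65. In all 4 panels paste day 15 replicate 3 is the highest of its group, and replicates 2 and 4 are the lowest.

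Among the 147 members the day 5 difference ranged from 1.00 to 5.58 on the log2 scale with a median of 2.29, and the day 15 difference from 0.71 to 6.07 with a median of 1.52. Over all 5856 features tested the medians were -0.05 and -0.02. Both differences reached 2 in 51 members, 3 in 17, 4 in 5 and 5 in 3. With paste day 15 replicates 2 and 4 alone these counts were 13, 4, 1 and 0. The day 15 difference was the larger in 25 members. A limma model across all features (Benjamini-Hochberg adjusted p under 0.05) called 9 of the 147 higher at day 5, where 0.188% of all features were called higher. The lack of overlap at day 5 that the rule asked for held in 6.63% of all features. The model called no member at day 15, where 0% of all features were called. On that day 71 members (48.3%), all higher, had an unadjusted limma p under 0.05, against 9.2% of all features in either direction. Fits with library quality weights or with only the 2 groups compared also called 0 members at day 15. At day 5 those fits called 81 members (of 189 features called higher in all) and 53 (of 58). As the rule used both contrasts, nothing is read from these counts. The member with the smallest adjusted p at day 5 ranked last, with a day 5 difference of 3.50 and a day 15 difference of 0.71.

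Close to the limits of the rule, the smallest day 5 difference inside was 1.00, and the nearest feature outside had 0.996. The smallest day 15 difference inside was 0.71 and the nearest outside 0.691. The narrowest gap between the lowest paste and the highest control library of day 5 was 0.0058 on the log2 scale, and the nearest feature outside had a gap of 0. Leaving out the day 15 limit would have added 45 features, the day 5 limit 29, the lack of overlap 264 and the value filter 17.

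Taken as a sum, the members made up 3.76%, 7.30%, 4.45% and 5.69% of the signal in the paste day 5 libraries, against 0.951%, 1.14%, 0.896% and 0.921% in the control day 5 libraries. At day 15 the share was 3.72%, 1.42%, 11.2% and 1.82% with paste, against 0.946%, 1.52%, 0.913% and 0.884% in controls. Paste day 15 replicate 2 was below control day 15 replicate 2, so the groups overlapped at day 15. The mean share was 5.30% ± 1.55 with paste and 0.976% ± 0.110 in controls at day 5, and 4.55% ± 4.58 with paste and 1.07% ± 0.304 in controls at day 15 (SD, n = 4 each). Without the member of rank 65 the share was still 9.15% in paste day 15 replicate 3.

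**Figure D3:**
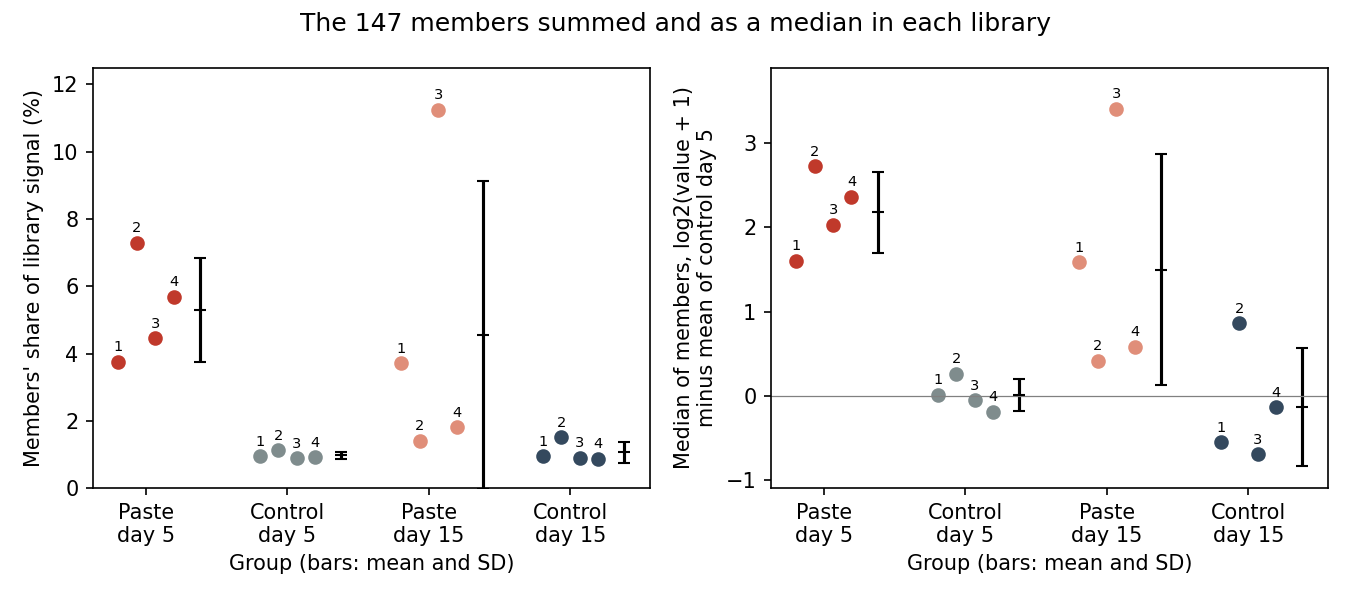
Left, the summed values of the 147 members as a share of the library's signal; right, the median over members of log2(value + 1) minus the control day 5 mean. Points are libraries numbered by replicate, and bars give the mean and SD of 4 libraries. Paste day 15 replicate 3 stands at 11.2%, while replicates 2 and 4 stand at 1.42% and 1.82%, close to control day 15 replicate 2 at 1.52%.

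The paste libraries of day 15 differed widely in how many members stood high. Replicate 1 lay above all 4 day 15 controls in 110 members, replicate 2 in 30, replicate 3 in 144 and replicate 4 in 43. Over all features tested the shares were 21.7%, 18.7%, 35.5% and 19.4%, so the members' counts in replicates 2 and 4 were near or somewhat above the background, and those in replicates 1 and 3 far above it. The median member stood 1.81, 0.46, 3.61 and 0.65 above the mean of the day 15 controls in paste replicates 1 to 4 on the log2 scale. In 15 members all 4 paste libraries lay above all 4 controls at day 15, where 1.91% of all features did. The first 4 members are among them. The largest of these gaps, 1.07 on the log2 scale, was that of PITA_000020711. All 4 paste libraries entered the choice of members through the day 15 limit, and replicate 1 nearly repeats a day 5 library. These counts are therefore a description of how the members were picked.

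With paste replicates 2 and 4 alone, the day 15 difference of the members ranged from -0.62 to 4.30 with a median of 0.51, against a median of 0.01 over all features tested. It was above 0 in 127 of the 147, where 51% of all features were above 0, and 0.7 or more in 58, where 8.93% of all features were. These libraries still entered the choice of members. To keep day 15 libraries out of the choice, the value filter was also applied to the 8 day 5 libraries alone, which 135 of the 147 members passed. Of 5377 features that passed it, 172 met the day 5 conditions, and 135 of these (78.5%) had a day 15 difference of 0.7 or more, against 11% of all 5377. With paste replicates 2 and 4 alone 53 (30.8%) reached 0.7, against 7.38%, and 138 (80.2%) were above 0, against 50.5%. The median day 15 difference of the 172 was 1.27 with all 4 paste libraries and 0.38 with replicates 2 and 4. Paste day 15 replicate 1, which nearly repeats a day 5 library, enters the counts with all 4. So does replicate 3, which correlated at 0.824 to 0.943 with the paste day 5 libraries. The counts with replicates 2 and 4 rest on the same 2 libraries for all 172 features. In paste day 15 the members' median SD of log2 values was 1.57, against 0.654 over all features tested. Shares at a fixed limit of 0.7 are therefore not compared at a like spread, and they are a description.

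**Figure D4:**
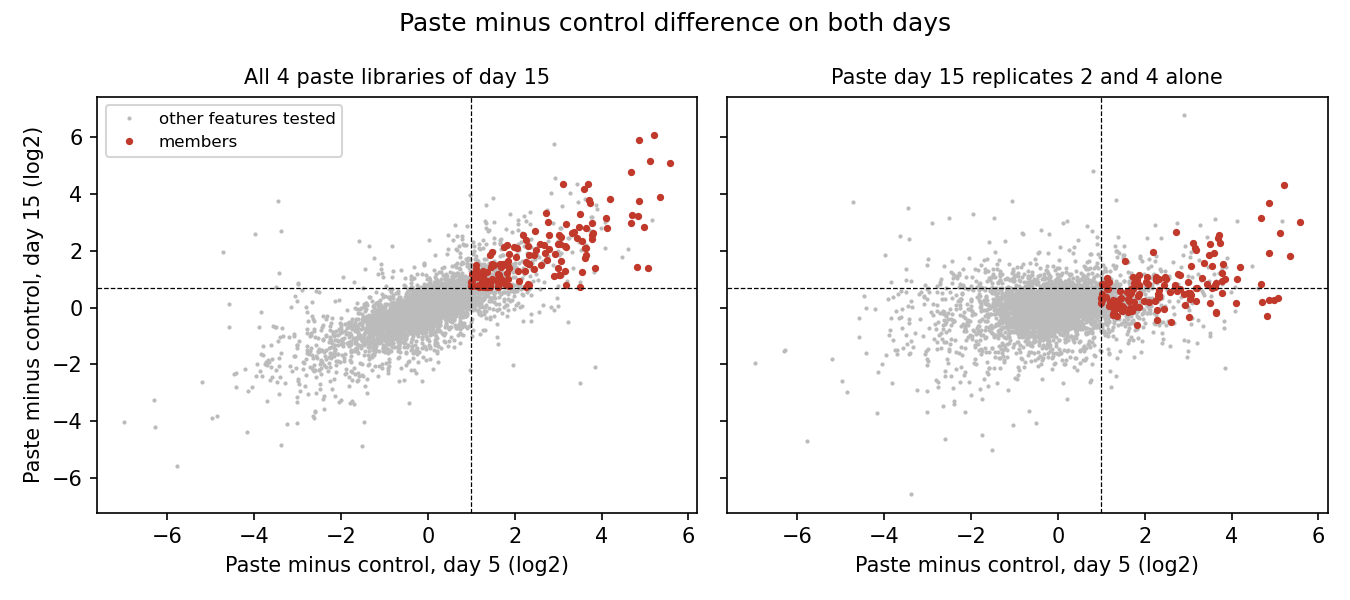
Each point is a feature tested, with members in red; the axes are paste minus control in mean log2(value + 1) at day 5 and at day 15, with the limits of the rule as dashed lines. On the right only paste day 15 replicates 2 and 4 enter the day 15 difference: 58 of 147 members then lie at or above 0.7.

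The change between the days inside each treatment was not a condition of the rule, although these comparisons share all their libraries with it. With paste, 134 of the 147 members were lower at day 15 than at day 5, where 48.2% of all features were lower. Their median log2 change was -0.73, against 0.02 over all features, and single changes ranged from -3.16 to 1.56. No member passed the test (0 of 147 by limma, with adjusted p-values of 0.819 or more), and 0% of all features did. In no member did the libraries of the days lack overlap, against 0.359% of all features higher and 0.359% lower. Paste replicate 1 held almost the same values on both days, so this overlap was nearly fixed in advance. In controls 6.25% of all features lacked overlap as higher and 6.93% as lower. Nothing about steadiness over time is read from the overlap with paste. At an unadjusted p under 0.05 there were 2 members, both lower, against 3.65% of all features. The rule asked for more at day 5 than at day 15, which itself favours a negative change. The median was -0.30 without paste day 15 replicate 2, -0.37 without replicate 4 and -1.41 without replicate 3 of that group. It was -0.97 without paste replicate 1 of both days, nearly identical libraries that the fit takes as independent. Without both paste replicates 1 and without replicate 3 of paste day 15, the fit gave a median of -2.03 and 51 members called, among 1149 features called in all, paste day 15 then resting on replicates 2 and 4. In those replicates the median member stood lowest of the paste day 15 libraries, so keeping only them itself favours a negative change. Nothing is read from these calls.

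Under wounding alone the members did not move together. Of the 147, 80 were lower in control day 15 than in control day 5, where 48.5% of all features were lower, and 67 were higher. With each library scaled to its total these counts were 73 lower and 74 higher, and the median of all features moved to 0.09. The median change was -0.07, against 0.02 over all features, with single changes from -3.24 to 3.42. None of the 147 passed the limma test, with adjusted p-values of 0.195 or more, and 0% of all features did. The unadjusted p was under 0.05 in 9 members, 7 higher and 2 lower, against 9.99% of all features. The days did not overlap in 7 members that were higher and 1 that was lower, against 6.25% and 6.93% of all features. A model with only both control groups called 2 members among 68 features called in all, and library quality weights called 3 among 125. Same-numbered control libraries deviated together, and with the replicate number as a block that model called 1 member among 45 features. The median was -0.36 without control day 15 replicate 2 and 0.09 without replicate 3 of that group. The members with both paste differences at 3 or more were mostly lower in the later controls, 15 of 17 with a median of -1.24. For members whose smaller difference was under 1 the median was 0.34. Paste differences and control changes share the control libraries, so this is a description.

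PITA_000020711 averaged 57.9 ± 74.3 in control day 15 and 68.2 ± 28.9 in control day 5 (SD, n = 4 each). The fitted difference in log2 was -1.82 with an SE of 1.34 (adjusted p = 0.685, limma), and -0.42 without control day 15 replicate 3, which is at 0. It was -2.88 without control day 15 replicate 2. With paste it averaged 2929 ± 4121 at day 15 and 2994 ± 2045 at day 5 (SD, n = 4 each), and the fitted difference was -0.95 with an SE of 1.34 (adjusted p = 0.854, limma). With 1 library left out this difference lay between -1.90, without paste day 15 replicate 3, and -0.33, without replicate 4, and it was -2.76 with paste day 15 replicates 2 and 4 and paste day 5 replicates 2 to 4 alone. For PITA_000030936 the fitted difference was -0.50 in controls, with an SE of 1.46 (adjusted p = 0.941, limma). With paste it was -0.47 with the same SE (adjusted p = 0.938, limma), and it was above 0 when any of 3 single paste libraries was left out. Neither feature passed the test in either treatment.

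The largest positive change with time in controls among the members was that of rank 88, which did not pass the test. It was at 5768, 294, 491 and 789.8 in control day 15, against 55.0, 52.6, 97.1 and 170.1 in control day 5. The control libraries of the days did not overlap, and the fitted difference was 3.42 with an SE of 0.92 (adjusted p = 0.273, limma). With paste it was at 2634, 4853, 597 and 3118 at day 15, against 2749, 1042, 307 and 359 at day 5. It was also the member least like the first, with a correlation of 0.210 over the 16 libraries. The last-ranked member was at 93.3, 99.6, 112 and 57.1 in control day 15, against 16.97, 25.8, 17.7 and 5.83 in control day 5. Its control groups did not overlap either, and the fitted difference was 2.50 with an SE of 0.53 (adjusted p = 0.195, limma). Its paste libraries were at 255, 159, 172 and 62.0 at day 15 and at 253, 366, 96.9 and 109.6 at day 5.

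**Figure D5:**
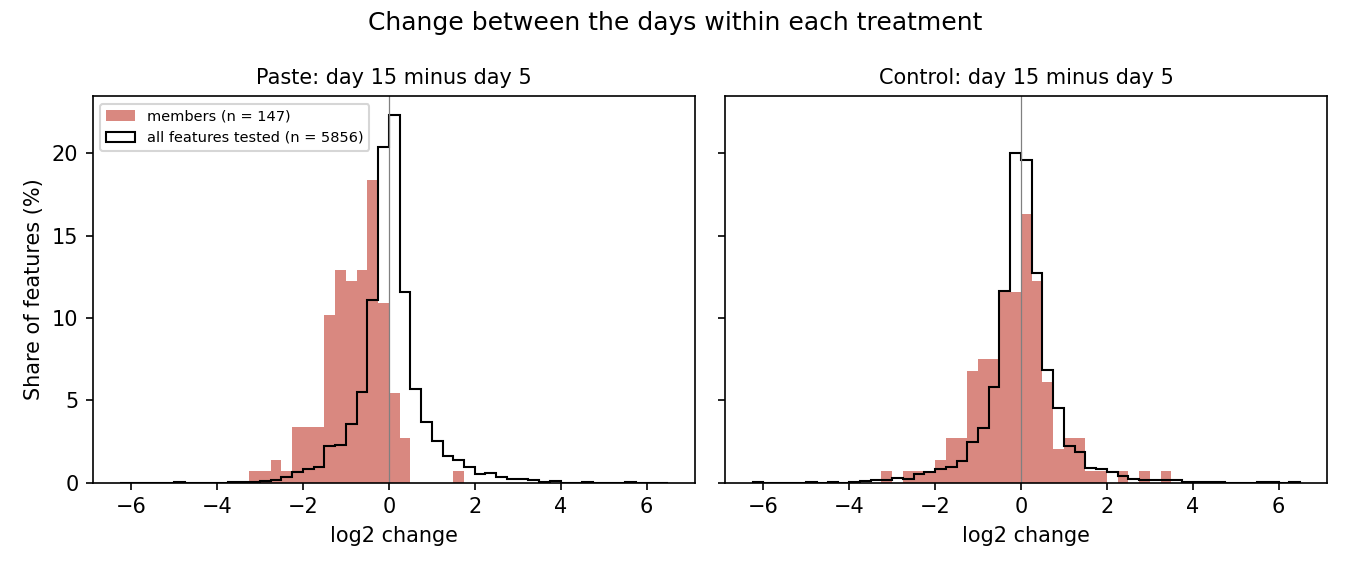
Histograms of the log2 change of day 15 against day 5 with paste (left) and in controls (right), as a share of the 147 members (red) and of all 5856 features tested (black line). With paste 134 of the 147 members lie left of 0, and the median of all members is -0.73. In controls the median of all members is -0.07.

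The members varied more between libraries of a group than features did in general. The median SD of the log2 values was 0.753 in paste day 5 and 0.620 in control day 5 for members, against 0.554 and 0.376 over all features tested. At day 15 it was 1.57 in paste and 0.993 in controls for members, against 0.654 and 0.441 over all features. The rule used these same libraries, and its day 15 limit asked only for a mean difference, which a few high paste libraries can meet. The wider spread is therefore a description of the members chosen. In controls the members also tended to deviate in the same libraries. Control day 15 replicate 2 was the highest of its group in the median member, 0.86 above the control day 5 mean, and control day 15 replicates 1, 3 and 4 were at -0.55, -0.70 and -0.14. Over the deviations of the 8 control libraries from their group means, the median pairwise correlation was 0.290 among members and -0.0006 among all features tested. Of the member pairs 33.5% had a correlation above 0.5, against 16.0% of all pairs. These values come from 8 libraries that all pairs share, and members differ in level from features in general.

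By level the members were not unusual across all libraries, with a median mean value of 143 against 180 over all features tested, and a range from 6.80 to 28425. In controls alone their median was lower, 49.7 against 167, as the rule favours. A mean value of 1000 or more was reached by 29 members (19.7%) and by 16.5% of the features tested. Values are not per length, so they do not rank the members by transcript number. In 29 members at least 1 control library was at 0, and in 4 at least 1 paste library was, while none was at 0 in all controls of a day.

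The identifiers fell into 3 kinds in much the same proportions as among all features tested. Identifiers starting with PITA_ made up 95 of the members (64.6%, against 68.4% of the features tested), those starting with PITAhm_ 35 (23.8% against 23.3%), and transcript names 17 (11.6% against 8.35%). Among the last, 7 members came from 3 transcript names and differed only in a path number at the end, so they may share fragments and are not independent of each other. The members of rank 4 and 10 are such a pair. Rank 4 was at 2073, 4819, 3366 and 3468 in paste day 5, against 97.8, 136, 233 and 51.5 in control day 5, and at 2052, 199.5, 11764 and 263 in paste day 15, against 6.22, 123, 3.37 and 24.4 in control day 15. Rank 10 was at 30.2, 93.6, 56.0 and 37.0 in paste day 5, against 4.04, 2.77, 11.4 and 0 in control day 5, and at 20.6, 11.97, 714 and 4.82 in paste day 15, against 0, 5.58, 0 and 0 in control day 15. Both were highest in paste day 15 replicate 3, and rank 10 was at 11.97 or less in paste day 15 replicates 2 and 4. In control day 5 replicate 1, the only library whose status was used, 3 of the 147 members (2.04%) were marked as low in data, against 34 of the 5856 features tested.

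The pattern of PITA_000020711 over the 16 libraries was most like that of the third member, with a Pearson correlation of 0.963, then the fourth with 0.957 and the ninth with 0.943. In all, 11 members correlated with it above 0.9, and the median over members was 0.785. Members were chosen on the differences that also drive these correlations.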

How the data were processed

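The 16 deposited tables, 1 per library, hold a signal per feature, named a count in the file headers and given there with its variance. The series-wide table was not used. RNA was sequenced single-end after rRNA depletion, per the labels' protocols. Their steps show fragment estimates that the authors scaled by 1 factor per library: 96.7% to 98.0% of low values (above 0 and up to 20.5 steps) lie within 0.1 of a whole multiple of a step of 0.688 to 1.56. They were not treated as counts. Per the submitters' processing notes, FastQC, Trimmomatic 0.32, HISAT2 2.0.4 and Cufflinks 2.1.1 were used. For build, annotation, strand and multiply mapped reads, the setting is not given in the sources used here. Groups and replicate numbers come from the labels. Nothing says how libraries relate to trees, so p-values measure the spread between these libraries.

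The members and the rule for named features were chosen with earlier results of these data known. Members were ranked by the smaller of the 2 paste differences, and only the first 2 are named by identifier. By the same rule the member highest in level under paste (rank 65) and those nearest the limits (rank 147 at day 15) are described. Ranks 3, 4, 10 and 88 were picked after their values were seen. In R 4.3.3, limma 3.58.1 (trend and robust settings) took log2(value + 1) of the 16 libraries, with a mean for each of the 4 groups, for the 5856 features that reached 10 in at least 4 libraries. Two-sided p-values were adjusted by Benjamini-Hochberg across those features, and 0.05 was the threshold. Fold changes on this scale understate changes of low features. The fit was run on simulated data with independent normal noise and, for each feature, the same spread in all groups. That simulation lacks the near-identical pair and the wider spread of paste day 15, so it does not show how the fit behaves with them. Between the control groups the replicate numbers pair libraries by their values, with correlations of 0.245 to 0.559 between deviations from the group means in all 4 pairs, although the labels state no pairing. Alternatives were pseudocounts of 0.5 and 4, 2 other scalings, 2 other filters, fits of only the groups compared, library quality weights, a replicate block, and omission of each library in turn, the near-identical pair (paste replicate 1 of both days), or that pair and paste day 15 replicate 3.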

Additional observations from a re-analysis of the deposited data

Results flagged for a closer look

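Of 40 groups of 4 values examined, 8 held a value far from the other 3, where chance gives about 1 in 20. That rate is no measure here, since 5 of the 8 come from ranks 3, 4, 10 and 88, which were picked after their values were seen. The rate also assumes normally distributed values. Values of single members were compared without logs, where a high value stands further apart than on the log2 scale used elsewhere. In 4 of the 8 the library was paste day 15 replicate 3. There rank 3 was at 36758, where the other paste libraries of day 15 had 638 to 4535, rank 4 at 11764 against 199.5 to 2052, rank 10 at 714 against 4.82 to 20.6, and the member of rank 65 at 124970.0 against 10008 to 26389. Control day 15 replicate 2 stood apart for the members' share of the signal, at 1.52% against 0.884% to 0.946%, and for rank 10, at 5.58 against 0 in the other controls of day 15. Control day 15 replicate 1 stood apart for the member of rank 88, at 5768 against 294 to 789.8. The same library was the shallowest, at 3323772 estimated fragments, where the other controls of day 15 had 4547875 to 4798357.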

How the results depend on the processing

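The number of features meeting the rule was 301 without the near-identical pair, 138 of them among the 147, and 91, of which 50 were among the 147, without that pair and paste day 15 replicate 3. With 1 library left out at a time it was lowest, 93, without replicate 3 of paste day 15, highest, 295, without replicate 1 of paste day 5, and 230 without replicate 2 of control day 5. Members called higher at day 5, 9 with all libraries, were 17 (of 18 features called higher in all) with total scaling, 3 (of 3) with no filter, 2 (of 2) without the pair, 88 (of 204) without the pair and replicate 3, 53 (of 58) with only the 2 groups compared, 2 (of 2) with the replicate block and 81 (of 189) with library quality weights, and 1 to 64 with 1 library left out, over 1.5 times away from 9 for 13 of the 16 libraries. Members called at day 15 stayed at 0 in every alternative listed. Members called between the days in controls were 1 (of 39 features called) without the pair and replicate 3, 2 (of 68) with only the 2 groups compared, 1 (of 45) when a replicate block was added to that fit, and 3 (of 125) with library quality weights, and with paste 51 (of 1149) without the pair and replicate 3, where the median change was -2.03; 1 library left out gave 0 calls in both, with medians of -0.36 to 0.09 in controls and -1.41 to -0.30 with paste. Leaving out a day 5 library, alone or as part of the pair, itself makes the lack of overlap at day 5 easier to meet. With all libraries, 264 features met all but that condition. The cause of the shifts was not otherwise tested. Omission of the pair and replicate 3 leaves the paste day 15 libraries in which members stood lowest, which itself favours a negative change with paste. Total scaling moved the median of all features between the days with paste to 0.14, and 129 members were then lower at day 15.

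PITA_000030936 could not be fitted under the stricter filter or without the pair and replicate 3. Its paste change between the days ran over -1.69 to 0.58 with 1 library left out. It was 0.35 without replicate 3 of day 5, and 0.15 and 0.58 without replicates 2 and 4 of day 15. Over all alternatives its adjusted p was 0.350 or more by limma. The labels do not say that replicate numbers pair libraries. Same-numbered libraries deviated together, with correlations above 0.1, in all 4 pairs of the control groups, but in at most 2 of 4 pairs of any other combination of groups. The replicate block changed no other call in the control comparison. The block within the control groups and the day 5 filter were chosen after seeing the data.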
